A study of Mus musculus with 5 samples.

Results

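Lysosomes break down what cells take up or discard. Soluble acid hydrolases each cut one kind of bond, small cofactor proteins hand lipids to them, heavily glycosylated membrane proteins line the organelle, and a rotary proton pump, the V-ATPase, acidifies it with a membrane sector (V0) and a cytosolic ATP-splitting sector (V1). Phagocytes and dendritic cells are known for a large lysosomal compartment that serves uptake and antigen processing. The genes described here are the lysosomal hydrolases, cofactors, membrane proteins and V-ATPase subunits, chosen by name: every gene symbol beginning with Atp6v, and a list of 18 hydrolases, 3 cofactors, 7 membrane proteins and the regulator Tfeb, without cathepsins. Through probe sets annotated with a single symbol, 48 such genes (110 probe sets) of 18193 genes were found in the table, and 39 of them (66 probe sets) passed the filter on low values.

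The comparison was between 2 progenitors that were double sorted from marrow of wild-type C57BL/6 mice, whose ages the labels do not give. The title of CDP 3 has another prefix than the other titles, which the labels do not explain, while its source is given as marrow like theirs. The common dendritic cell progenitor (CDP, 3 arrays) was negative for lineage markers, Sca-1 and CD16/32, positive for CD34, Flk2 and CD115, and intermediate in c-Kit. The common myeloid progenitor (CMP, 2 arrays) had the same lineage, Sca-1, CD16/32, CD34 and Flk2 phenotype but was high in c-Kit and negative for CD115 and CD11c. RNA from 10000 to 30000 cells was amplified over 2 cycles and hybridised to Affymetrix mouse arrays, on which each gene is read by 1 or more probe sets. The comparison asks how far lysosomal genes differ between a progenitor of dendritic cells and an earlier myeloid one. The labels do not tie the arrays to different mice, and a p-value here rests only on the scatter of these 5 arrays, part or all of which may be technical. In such bulk samples fewer cells of a type and less RNA per cell cannot be told apart.

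Some arrays stood apart in ways that touch the results. Over all tested probe sets CMP 1 correlated more with CDP 1 (0.9235) than with CMP 2 (0.895). CMP 2 correlated more with CDP 2 (0.9112) than with CMP 1. CDP 1 correlated at 0.9163 with CDP 2 and 0.9247 with CDP 3, and CDP 2 at 0.9745 with CDP 3. The 5′ beta-actin control lay below log2 8 on CDP 1 and CMP 1 (6.54 and 6.71) and between 10.52 and 12.97 on the other arrays, so each difference is also given within these 2 kinds of array. Of 11 neutrophil markers with a probe set, 10 were at or above log2 5 on CDP 2 and 0 on any other array, with a summed linear signal of 64.5 to 19080 over the CDP arrays and 80.4 to 85.3 over the CMP arrays. Of 14 macrophage markers, 3 reached log2 5 on CDP 2, 1 each on CDP 1 and CDP 3 and 0 on CMP arrays, with C1qa, C1qc, Marco and Timd4 at the table's lowest value throughout. Their summed signal was 117 to 264 over the CDP and 82.2 to 109 over the CMP arrays, and Adgre1, which encodes F4/80, was at 5.80, 5.82 and 5.41 in CDP and 4.60 and 3.88 in CMP. Of 5 erythroid markers, 2 were seen on CDP 2 alone. Mast cell and basophil markers went the other way, with a summed signal of 153 to 167 in CDP and 1081 to 2286 in CMP. Of 9 with a probe set, 2 or 3 reached log2 5 on CDP arrays and 4 on each CMP array. Megakaryocyte markers also had a lower sum in CDP (161 to 181 against 251 to 346). Of 7 with a probe set, 1 or 2 reached log2 5 on CDP arrays and 3 on each CMP array. Itgb3 overlapped between groups (6.08 to 6.76 in CDP, 6.58 and 7.71 in CMP). Vwf was higher in CDP but below log2 5 on every array. Lymphocyte markers had a sum of 182 to 333 in CDP and 106 to 166 in CMP. Of 9 with a probe set only 1, Cd79b, reached log2 5 on any array. It was at 7.12, 8.13 and 8.07 in CDP and 5.96 and 6.96 in CMP. The part of these cells in the lysosomal differences was not tested, and values without CDP 2 are given for some counts only. Of the sorting markers, Kit was between 7.18 and 7.75 in CDP against 10.04 and 10.20 in CMP, and Itgax, which encodes CD11c, between 6.38 and 7.78 against 2.26 on both CMP arrays. Csf1r, which encodes CD115, was between 12.94 and 13.16 in CDP but also clearly detected in CMP, which was sorted as CD115 negative, at 11.75 and 11.03. Fcgr2b, which encodes CD32, was between 8.72 and 10.25 on all arrays, although both groups were sorted as CD16/32 negative. Fcgr3, which encodes CD16, lay near log2 5, at 4.68, 5.40 and 4.60 in CDP and 4.83 and 5.38 in CMP. Both groups were sorted as positive for Flk2 and CD34. Flt3, which encodes Flk2, was at 10.89, 11.02 and 10.76 in CDP and 9.88 and 10.06 in CMP. Cd34 was lower in CDP, at 10.20, 10.996 and 10.92 against 11.22 and 12.86.

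Most lysosomal genes had a higher mean in CDP, by small steps. Each difference is the CDP mean less the CMP mean on the log2 scale, from the brightest tested probe set of a gene. Of 39 tested genes, 32 (82.1%) had a positive difference, against 60.6% of 8449 tested genes. Their median difference was 0.58, from -1.05 to 2.47, against 0.17 over all tested genes. Without CDP 2 the number with a positive difference was again 32. It was also 32 after quantile normalization, and 25 with arrays centred on their medians, which moved the median of all genes to -0.25. For this centring an array's median was taken only over values more than 0.005 above the table's lowest value. The share of values at that lowest level differed between arrays, from 32.1% on CMP 1 to 36.5% on CDP 2.

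No gene passed the threshold on its brightest probe set. At an adjusted p under 0.05 in limma, with Benjamini-Hochberg adjustment over all probe sets, 0 of 39 rose and 0 fell, where 1.67% of all genes rose and 0.473% fell. At an unadjusted p under 0.05, 9 were higher and 1 lower, beside 12.6% and 4.52% of all genes. The 9 became 2 without CDP 2, 4 without CDP 3, 5 without CMP 1 and 3 with arrays centred on their medians, and 14 with all probe sets of a gene averaged. Every CDP array lay above every CMP array for 16 genes (41.0%) and below for 3 (7.69%), beside 23.7% and 10.8% of all genes. Of the 66 probe sets 2 rose and 0 fell, where 1.31% of all probe sets (217) rose and 0.423% (70) fell. These 2 belong to Npc2 and Grn and are not the brightest of their gene. With arrays centred on their medians 120 of all probe sets rose and 92 fell.

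**Figure D1:**
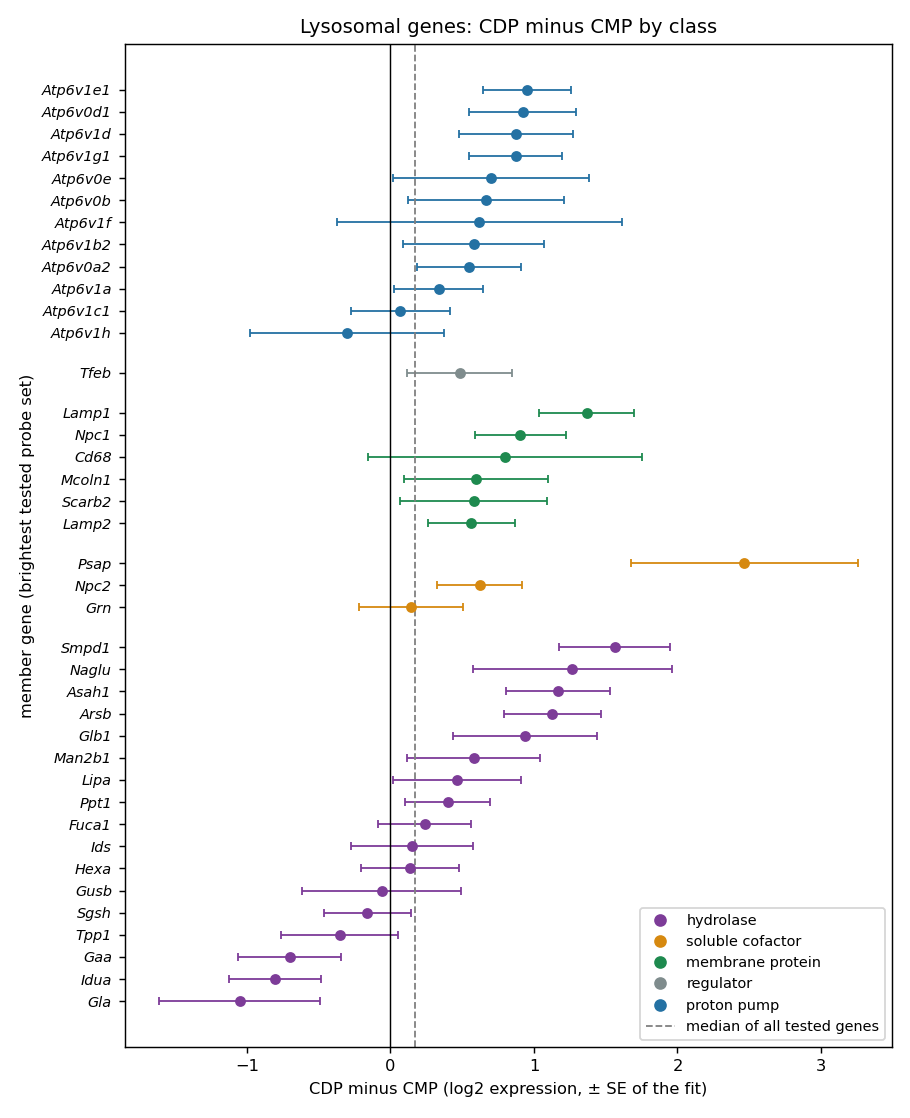
CDP minus CMP for each of the 39 tested genes (horizontal axis, log2 expression units; points are the difference and bars its standard error in the fit over 3 CDP and 2 CMP arrays), grouped and coloured by class. The dashed line is the median of all tested genes at 0.17; the membrane proteins and all but 1 of the 12 proton pump genes lie right of 0, while the hydrolases spread from -1.05 to 1.56.

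Among single probe sets, the widest differences were those of the soluble cofactors. On brightest probe sets the median of these 3 genes was 0.62, beside 0.70 for membrane proteins and 0.64 for the proton pump. Npc2 encodes the carrier that takes cholesterol out of the lysosomal lumen together with Npc1. On its probe set 1455768_at it was at 9.22, 9.15 and 9.06 on CDP 1, CDP 2 and CDP 3 and at 6.60 and 6.69 on CMP 1 and CMP 2. The groups were far apart, with little spread in either. Its mean was 9.14 ± 0.08 (SD, n = 3) in CDP and 6.65 ± 0.06 (SD, n = 2) in CMP, a rise of 2.50 ± 0.30 (SE) or 5.64-fold (limma, adjusted p = 0.0244). The brightest Npc2 probe set, 1448513_a_at, read 13.97, 13.99 and 14.04 in CDP and 13.28 and 13.48 in CMP. It separated the groups as well, but by 0.62 ± 0.30 (adjusted p = 0.383). A further probe set, 1416901_at, ran from 12.86 to 13.55 in CDP and read 11.66 and 13.01 in CMP, overlapping between groups (0.88 ± 0.49, adjusted p = 0.454).

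Grn encodes progranulin, a precursor that is cleaved into granulins in the lysosome. On 1456567_x_at it was at 12.36, 12.41 and 12.61 in CDP and at 10.57 and 10.36 in CMP. Both groups were tight, and the difference of 2.00 ± 0.30 (3.99-fold) passed the threshold (limma, adjusted p = 0.0434). On 1448148_at it was at 11.59, 12.40 and 12.84 in CDP and at 8.75 and 9.78 in CMP, without overlap and wider apart. That difference of 3.01 ± 0.52 (8.05-fold) did not pass (adjusted p = 0.0545). The brightest probe set, 1438629_x_at, read 14.19, 13.68 and 13.61 in CDP and 13.93 and 13.43 in CMP, so that the groups overlapped (0.14 ± 0.36, adjusted p = 0.900). The 3 Grn probe sets therefore gave different answers, and the suffix _x_at of 2 of them marks probes that may also match other transcripts. Averaged over its probe sets, Grn was at 1.72 ± 0.29 and passed (adjusted p = 0.0362).

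The calls of Npc2 and Grn were lost when any array was left out. Npc2 1455768_at had an adjusted p from 0.0651 to 0.168 when any 1 array was left out, with differences from 2.45 to 2.54. For Grn 1456567_x_at the adjusted p went from 0.0834 to 0.252, with differences from 1.89 to 2.10. Without CDP 1, 44 probe sets of the whole table were called, and without any 1 of the other arrays 0 were. With arrays centred on their medians, neither was called, at 2.08 (adjusted p = 0.0596) for Npc2 and 1.58 (adjusted p = 0.134) for Grn.

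Psap encodes prosaposin, the precursor of the saposins that present sphingolipids to their hydrolases. It had the largest difference of any gene's brightest probe set in these classes. It was at 11.71, 13.66 and 13.97 in CDP and at 9.96 and 11.35 in CMP. The lowest CDP array, CDP 1, lay only just above CMP 2, and within each group the array low in 5′ actin signal was the lowest. The difference was 2.47 ± 0.79 (5.52-fold) and did not pass (adjusted p = 0.212). It was 1.76 between CDP 1 and CMP 1 and 2.47 between the other arrays. With the 5′ kind of array as a block it was 2.17 ± 0.30 and passed (limma, adjusted p = 0.0124). A dimmer Psap probe set was at 5.04, 6.94 and 6.64 in CDP and 3.07 and 5.26 in CMP, at least 2.11-fold higher in CDP when values below log2 5 are set to 5, and overlapped between groups (adjusted p = 0.308).

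**Figure D2:**
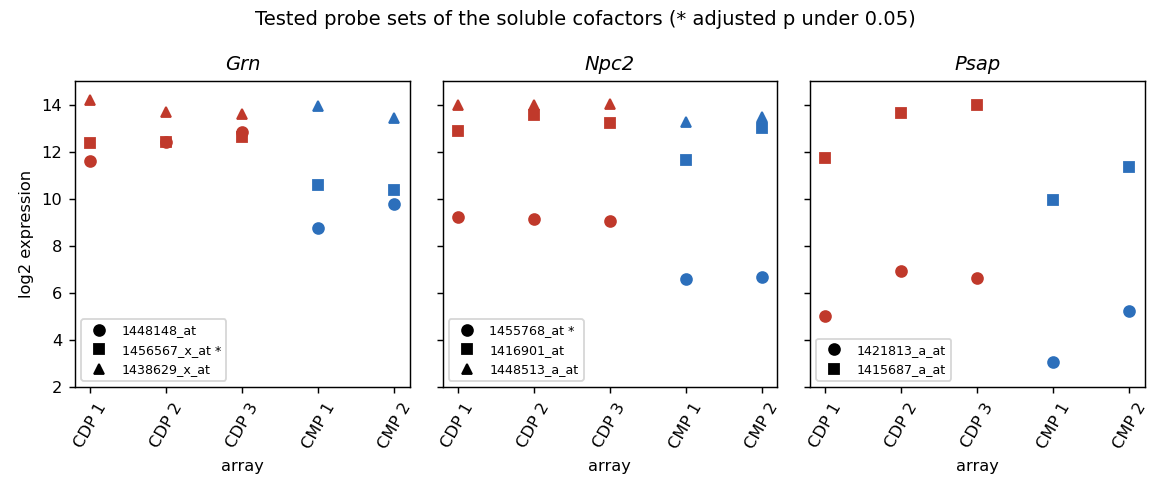
Log2 expression (vertical axis) on each array (horizontal axis; CDP red, CMP blue) for each tested probe set of Grn, Npc2 and Psap, with a marker shape per probe set and an asterisk for those with an adjusted p under 0.05. The brightest Grn probe set overlaps between groups, at 13.61 to 14.19 in CDP and 13.43 to 13.93 in CMP, while its other 2 probe sets lie apart.

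The hydrolases had differences of both signs. Of 18 with a probe set, 17 were tested, and 0 passed the threshold. Neu1, the lysosomal sialidase, was not tested, as it reached at most 4.63 on any array. Of the 17, 11 had a positive and 6 a negative difference. Their median of 0.24 was close to that of all genes (0.17), and was -0.18 with arrays centred on their medians and 0.47 without CMP 2. Every CDP array was above every CMP array for 5 of them (29.4%) and below for 3 (17.6%), beside 23.7% and 10.8% of all genes.

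Enzymes of sphingolipid breakdown had a median of 0.94, with 4 of 5 positive. Smpd1, acid sphingomyelinase, was at 7.43, 8.21 and 8.31 in CDP and at 6.35 and 6.49 in CMP. All CDP arrays were above both CMP arrays, by 1.56 ± 0.39 (2.96-fold, adjusted p = 0.129). Asah1, acid ceramidase, which acts on the product of Smpd1, was at 11.07, 11.32 and 10.997 in CDP and 9.60 and 10.33 in CMP, again without overlap (1.17 ± 0.36, adjusted p = 0.198). Glb1, lysosomal beta-galactosidase, spread more widely, from 7.61 to 9.13 in CDP against 7.24 and 7.57 in CMP (0.94 ± 0.50, adjusted p = 0.435). Hexa, the alpha subunit of beta-hexosaminidase, lay between 13.66 and 13.73 in CDP, inside the CMP values of 13.23 and 13.90 (0.13 ± 0.34). Gla, alpha-galactosidase A, had the lowest difference of all 39 genes. It was at 4.68, 5.78 and 5.84 in CDP and at 5.84 and 7.12 in CMP, with the highest CDP array all but touching the lowest CMP array. At -1.05 ± 0.56 (adjusted p = 0.433) it was at least 1.92-fold lower in CDP, since CDP 1 was below log2 5. Gla differed by -1.16 between the arrays low in 5′ signal and by -1.31 between the others, and passed with that kind of array as a block (-1.25 ± 0.25, adjusted p = 0.036), as did Smpd1 (1.47 ± 0.29, adjusted p = 0.0313).

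Enzymes of glycosaminoglycan breakdown were divided, with 3 positive and 3 negative differences among 6. Arsb, arylsulfatase B, was at 9.17, 9.52 and 9.65 in CDP and at 8.53 and 8.10 in CMP, without overlap (1.13 ± 0.34, 2.19-fold, adjusted p = 0.187). Naglu, an enzyme of heparan sulfate breakdown, was at 5.32, 6.53 and 6.80 in CDP and 4.04 and 5.86 in CMP. CDP 1 lay below CMP 2, and the difference was 1.27 ± 0.69 (at least 1.72-fold, adjusted p = 0.445). Idua, alpha-L-iduronidase, went the other way, at 5.93, 5.84 and 6.02 in CDP and 6.50 and 6.97 in CMP. Its groups did not overlap, and its difference of -0.80 ± 0.32 (adjusted p = 0.299) was the only negative one with an unadjusted p under 0.05 (0.0449). Gusb, beta-glucuronidase, was at 10.43, 10.91 and 10.86 in CDP and 9.93 and 11.66 in CMP. The CMP arrays lay on either side of all CDP arrays (-0.06 ± 0.55), and its dimmer probe set gave 0.10 ± 1.34. Ids, iduronate sulfatase, lay between 9.53 and 9.76 in CDP and at 10.08 and 8.92 in CMP (0.15 ± 0.42), with -0.29 ± 0.35 on a second probe set. Sgsh, heparan N-sulfatase, was at -0.16 ± 0.30.

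Enzymes of glycoprotein, glycogen, lipid and peptide breakdown had small differences. Gaa, the acid alpha-glucosidase that degrades glycogen, was at 7.73, 7.70 and 8.41 in CDP and 8.65 on both CMP arrays on its brighter probe set, lower in CDP without overlap (-0.70 ± 0.36, adjusted p = 0.415), while the other probe set overlapped (-0.20 ± 0.63). Tpp1, a tripeptidyl peptidase, was at 9.16, 8.45 and 8.99 in CDP and 9.62 and 8.81 in CMP, overlapping (-0.35 ± 0.41). Its second probe set separated the groups the other way, between 8.75 and 8.81 in CDP against 8.41 and 8.50 (0.32 ± 0.29). Ppt1, which removes palmitate from proteins, lay between 8.90 and 9.04 in CDP against 8.52 and 8.65 in CMP (0.40 ± 0.30). Lysosomal alpha-mannosidase (Man2b1, 0.58 ± 0.46), acid lipase (Lipa, 0.46 ± 0.45) and alpha-fucosidase (Fuca1, 0.24 ± 0.32) overlapped between groups. The smallest adjusted p of these 6 genes was 0.415.

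**Figure D3:**
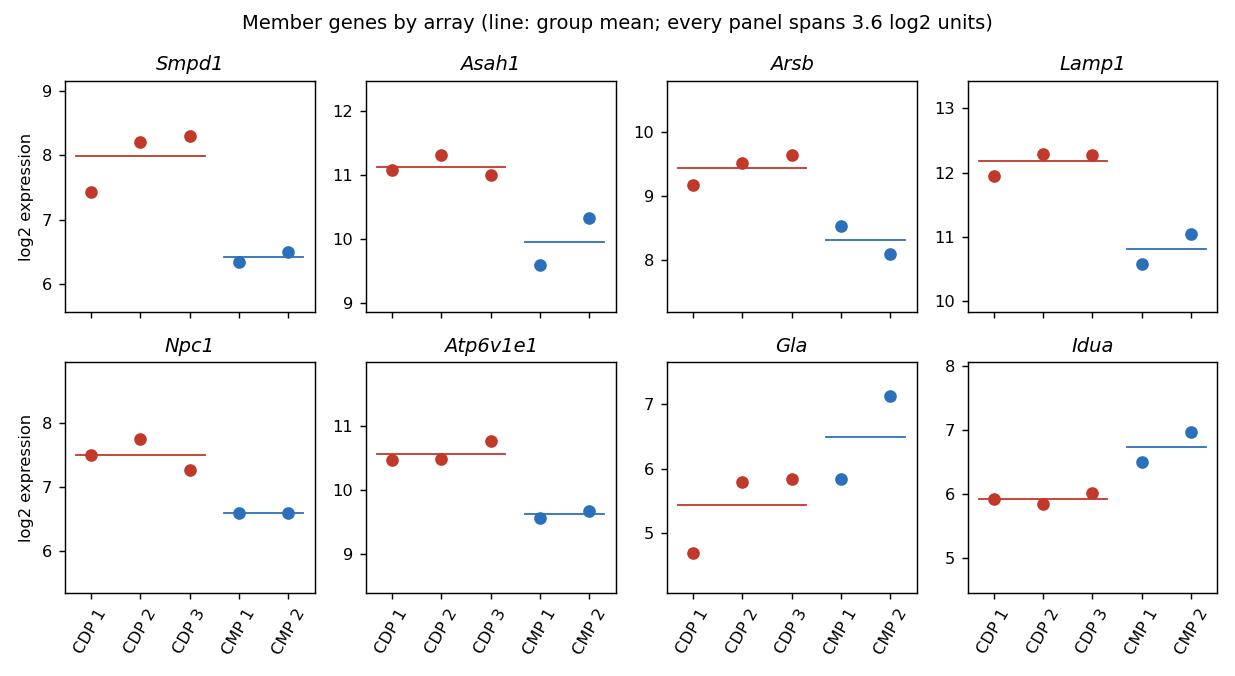
Log2 expression (vertical axes, each spanning the same 3.6 log2 units) on each array for 8 genes, with CDP in red, CMP in blue and lines at the group means. In Smpd1, Asah1, Arsb, Lamp1, Npc1 and Atp6v1e1 all 3 CDP arrays lie above both CMP arrays, and in Gla and Idua all lie below, though for Gla the nearest arrays (5.84 and 5.84) almost meet.

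The membrane proteins were all higher on average in CDP, and none passed the threshold. All 6 tested had positive differences, from 0.56 to 1.37 with a median of 0.70 (0.28 with arrays centred on their medians, where the median of all genes was -0.25). The direction held in each of the 6 both between the arrays low in 5′ signal (median 0.66) and between the others (0.80). Lamp1, a main glycoprotein of the lysosomal membrane, was at 11.95, 12.29 and 12.28 in CDP and at 10.57 and 11.04 in CMP. Its groups were separated by 1.37 ± 0.33 (2.58-fold, adjusted p = 0.124), and it passed with the 5′ kind of array as a block (1.30 ± 0.25, adjusted p = 0.0316). Its relative Lamp2, which also serves chaperone-mediated autophagy, had 4 tested probe sets with differences from 0.56 to 1.00, the brightest at 12.87, 13.14 and 13.09 in CDP against 12.40 and 12.53 in CMP (adjusted p = 0.436). Scarb2 encodes the receptor that carries glucocerebrosidase to lysosomes. Its brightest probe set overlapped, at 11.48, 10.69 and 10.43 in CDP and 10.87 and 9.70 in CMP (0.58 ± 0.51). Its second probe set did not overlap, at 8.69, 8.32 and 8.51 against 6.87 and 7.11 (1.52 ± 0.31, 2.87-fold, adjusted p = 0.0855).

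Npc1, the membrane transporter that receives cholesterol from Npc2, was at 7.50, 7.74 and 7.27 in CDP and at 6.60 on both CMP arrays (0.91 ± 0.32, adjusted p = 0.246). Mcoln1, a lysosomal cation channel, was at 6.76, 8.03 and 8.02 in CDP and 6.74 and 7.28 in CMP, with CDP 1 next to CMP 1 (0.60 ± 0.50). Cd68, a glycoprotein of macrophage and dendritic cell lysosomes, was at 5.33, 7.19 and 7.54 in CDP and 4.61 and 7.17 in CMP. The arrays split by 5′ signal and not by cell type, and the difference was 0.80 ± 0.95 (at least 1.52-fold, adjusted p = 0.760). Without CMP 1 it was -0.48. No probe set of Cd63 with a single symbol was found.

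Most proton pump genes had small positive differences. Of 20 subunit genes with a probe set 12 were tested, of which 11 had a positive difference, and 0 passed. Their median was 0.64, from -0.30 to 0.95, and was 0.23 with arrays centred on their medians and 0.40 without CMP 1. Within the V0 sector 4 of 4 and within V1 7 of 8 were positive, with medians of 0.68 and 0.60. All CDP arrays lay above all CMP arrays for 6 genes (50%) and below for 0, beside 23.7% and 10.8% of all genes. Between the arrays low in 5′ signal the median was 0.65 and between the others 0.46, and 9 of 12 were positive in both. One such exception was Atp6v1h, the regulatory H subunit, whose CMP values of 8.73 and 10.79 enclosed the CDP range of 9.03 to 10.09 (-0.30 ± 0.68).

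Atp6v1e1, part of the peripheral stalks that brace the pump, had the largest difference of the class, at 10.45, 10.47 and 10.76 in CDP and 9.56 and 9.67 in CMP. Groups did not overlap (0.95 ± 0.31, 1.93-fold, adjusted p = 0.215). Atp6v0d1, which joins the V0 ring to the central stalk, was at 10.27, 10.66 and 10.81 in CDP and 9.32 and 10.002 in CMP (0.92 ± 0.37, adjusted p = 0.304). Atp6v1g1, another stalk subunit, was at 13.66, 13.35 and 13.28 in CDP and 12.73 and 12.38 in CMP (0.87 ± 0.32, adjusted p = 0.269), with 1.22 ± 0.51 on a second probe set. For these 3 genes each CDP array was above each CMP array. Atp6v1d, of the central rotor, was at 0.87 ± 0.40, with 0.85 and 0.96 on its other probe sets. Atp6v1b2 and Atp6v1a, which form the ATP-splitting head, were at 0.58 ± 0.49 and 0.34 ± 0.31, both without overlap between groups. However, CDP 1 of Atp6v1b2 (11.62) lay well above CDP 2 and CDP 3 (10.25 and 10.37), and CDP 2 only just above CMP 1 (10.22). The second tested probe sets of Atp6v1b2 (0.94 ± 0.74) and Atp6v1a (0.78 ± 0.48) overlapped between groups.

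In 3 other subunits CDP 1 and CMP 1, the arrays low in 5′ signal, were the 2 lowest arrays. That is 25% of the 12 tested pump genes, near the 25.5% of all tested genes. These 2 arrays were the highest for 0 of the 12, beside 15.9% of all. Atp6v1f was at 8.71 and 8.06 on CDP 1 and CMP 1 and at 11.14, 10.23 and 10.76 on CDP 2, CDP 3 and CMP 2 (0.62 ± 0.99, or -0.73 without CMP 1). The V0 subunits Atp6v0e (0.70 ± 0.68) and Atp6v0b had the same 2 arrays lowest. Atp6v0b was at 10.23, 10.95 and 10.61 in CDP and 9.13 and 10.73 in CMP, and its difference was 0.67 ± 0.54, with -0.10 ± 0.53 on a dimmer probe set. Over all classes CDP 1 and CMP 1 were the 2 lowest arrays for 8 of 39 genes (20.5%) and the 2 highest for 4 (10.3%), beside 25.5% and 15.9% of all tested genes. Atp6v1c1, a subunit tied to reversible assembly of the pump, was at 11.65, 11.58 and 11.47 in CDP and 11.14 and 11.84 in CMP, so that the groups overlapped (0.07 ± 0.35), and its other 2 probe sets gave -0.27 and 0.16.

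Most subunits with alternative isoforms were detected through 1 isoform. For the large V0 subunit a, Atp6v0a2 was tested, at 7.08, 7.66 and 7.85 in CDP and 6.87 and 7.08 in CMP (0.55 ± 0.36), and at 5.22, 6.68 and 5.99 in CDP and 4.005 and 4.39 in CMP on a dimmer probe set (at least 1.95-fold higher), which was detected in CDP alone and so passed the filter through CDP. Atp6v0a1 reached at most 3.45 on any of its 4 probe sets and Atp6v0a4 2.26. Atp6v0d2, Atp6v0e2, Atp6v1b1 and Atp6v1c2 were at 2.26 on every array, and Atp6v1e2 and Atp6v1g2 reached at most 2.40 and 2.39. Such values lie below detection and are no measure of absence. The a3 isoform, encoded by Tcirg1 and therefore outside the Atp6v symbols, was at 9.52, 9.99 and 9.67 in CDP and 8.13 and 9.05 in CMP, without overlap (1.14 ± 0.40, 2.20-fold, adjusted p = 0.246). No probe set with a single symbol was found for Atp6v0c or Atp6v1g3.

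**Figure D4:**
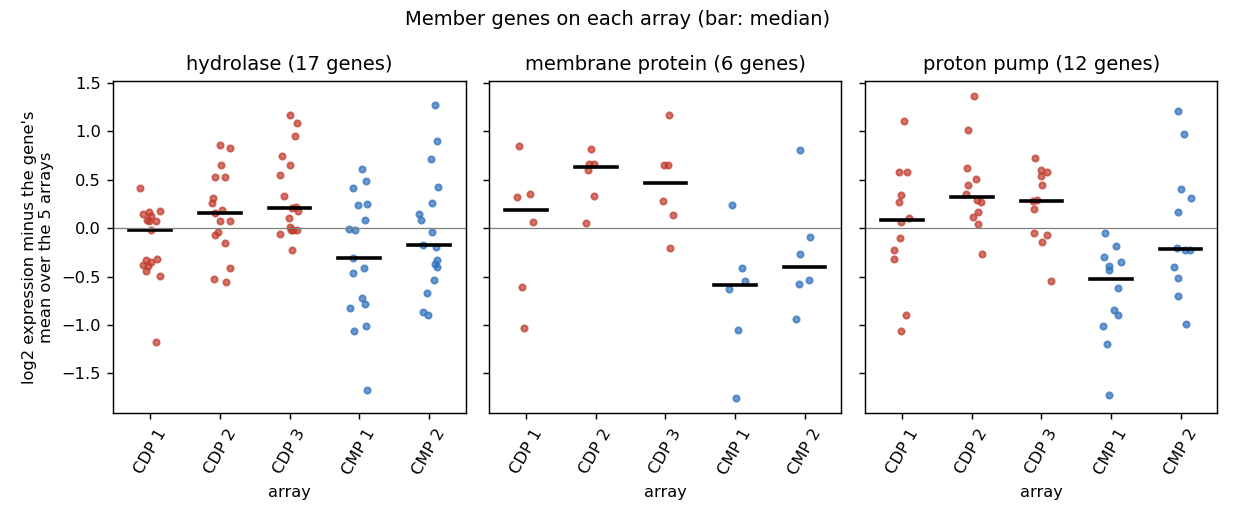
For each gene of 3 classes, log2 expression on an array minus that gene's mean over the 5 arrays (vertical axis), by array (horizontal axis; CDP red, CMP blue; black bars are medians). Median deviations of the membrane proteins are 0.19, 0.63 and 0.47 on the CDP arrays and -0.59 and -0.41 on the CMP arrays, those of the proton pump 0.09, 0.32 and 0.29 against -0.53 and -0.22, and those of the hydrolases -0.02, 0.15 and 0.21 against -0.31 and -0.17.

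Differences within the 2 kinds of array were compared for every gene. Between CDP 1 and CMP 1 the median of the 39 genes was 0.50, and between CDP 2 and CDP 3 against CMP 2 it was 0.58. Both differences were positive for 27 of 39 genes (69.2%), beside 42.8% of all tested genes. With the 5′ kind of array as a block, 3 genes rose (Psap, Smpd1 and Lamp1) and 1 fell (Gla), where 7.1% of all genes rose and 2.66% fell. Over probe sets 9 of 66 rose in that fit, beside 6.19% of all. These were the 3 named, a second one of Psap, the dimmer one of Scarb2 (1.53 ± 0.28, adjusted p = 0.0252), 2 of Grn, 1 of Npc2 and the dimmer one of Atp6v0a2. The last was above detection in CDP alone, so the filter admitted it through the group where it is high and its call supports nothing.

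**Figure D5:**
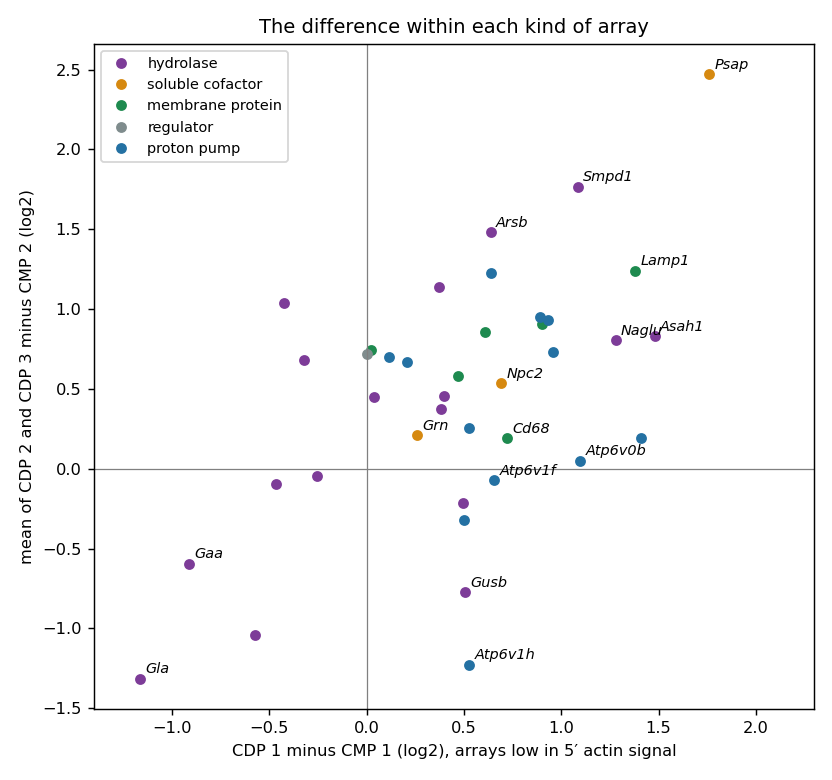
CDP 1 minus CMP 1, the arrays low in 5′ actin signal (horizontal axis, log2), against the mean of CDP 2 and CDP 3 minus CMP 2 (vertical axis, log2) for the 39 tested genes, coloured by class. Both differences are positive for 27 genes, Gla lies lowest on the left at -1.16 and -1.31, and Psap lies at the upper right at 1.76 and 2.47.

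Tfeb encodes a transcription factor that drives many lysosomal genes through a palindromic promoter element, known as CLEAR, which contains the E-box CACGTG. Tfeb was at 5.30, 5.95 and 6.09 in CDP and at 5.30 on both CMP arrays, so CDP 1 equalled the CMP arrays (0.48 ± 0.37, adjusted p = 0.597). Promoters were searched in RefSeq sequence of GRCm38.p6 from 250 bases before to 50 after each gene's start, and 40 of the 48 genes had an entry, the others being Asah1, Npc1, Atp6v0a2, Atp6v0d2, Atp6v1b2, Atp6v1c1, Atp6v1g1 and Atp6v1h. All 3 patterns searched are palindromes, so 1 search covers both strands, and each longer pattern contains the shorter. CACGTG was found for 11 of the 40 (27.5%) and for 8.09% of 27025 genes with an entry. Among genes tested on the arrays it was found for 11 of 32 members (34.4%) and for 12.8% of all. TCACGTGA, a pattern added after the search had begun, was found for 5 of 32 tested members (15.6%) and 2.52% of all tested genes. The E-box with GT before and AC after it, the form of CLEAR planned for the search, was found for 0 of 40 and for 0.37% of all genes. A match is a description of letters and shows no binding.

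The 5 genes with TCACGTGA are shown with 60 bases of promoter each, 5′ to 3′ on the gene's strand and with the match in capitals. The plan was to show promoters with the longer planned form of CLEAR, but no lysosomal gene searched had it. These promoters hold the longest pattern that was found. They lie at chr8:105566035-105566094 (minus strand, Atp6v0d1), chr17:26676372-26676431 (plus, Atp6v0e), chr16:44139358-44139417 (minus, Atp6v1a), chrX:134601196-134601255 (minus, Gla) and chr8:3500447-3500506 (plus, Mcoln1).
Atp6v0d1: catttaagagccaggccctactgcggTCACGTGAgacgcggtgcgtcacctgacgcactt
Atp6v0e: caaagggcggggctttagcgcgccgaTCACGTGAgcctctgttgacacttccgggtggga
Atp6v1a: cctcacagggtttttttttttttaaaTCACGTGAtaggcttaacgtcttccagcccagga
Gla: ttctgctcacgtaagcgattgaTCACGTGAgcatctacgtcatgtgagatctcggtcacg
Mcoln1: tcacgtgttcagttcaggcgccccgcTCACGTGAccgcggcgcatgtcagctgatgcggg

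These 5 genes did not share one direction. Atp6v0d1 (0.92), Atp6v0e (0.70), Mcoln1 (0.60) and Atp6v1a (0.34) had positive differences and Gla a negative one (-1.05), and none passed. The other 6 with CACGTG were Lamp1, whose promoter holds 4 copies, Atp6v0b, Gaa, Glb1, Naglu and Sgsh. Over the 11 genes 8 differences were positive with a median of 0.67, and over 21 tested members with an entry but no CACGTG 18 were positive with a median of 0.56. Grn, Npc2, Psap and Smpd1 were among the latter.

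Other genes of the lysosome were drawn from lists made by function. Of 84 tested genes 2 passed as higher and 0 as lower, beside 1.67% and 0.473% of all genes, and 58 (69.0%) had a positive difference, beside 60.6%. Their median was 0.30 against 0.17 over all genes. Naaa, an acid amidase that degrades fatty acid ethanolamides, was at 5.82, 6.68 and 5.33 in CDP and at 2.91 and 3.06 in CMP, below detection there and at least 1.92-fold lower than in CDP. It passed the filter through CDP alone, so its call supports nothing. Slc29a3, a nucleoside transporter of the lysosomal membrane, was at 9.76, 10.26 and 10.17 in CDP and 8.10 on both CMP arrays, a rise of 1.96 ± 0.32 (3.90-fold, limma, adjusted p = 0.0498). That call lay at the threshold and was kept in 5 of 17 alternatives, with adjusted p from 0.0127 to 0.276, and lost among others with quantile normalization, with centred arrays and without any 1 array. No other of the 15 hydrolases and 21 membrane proteins of these lists passed, including Hgsnat (1.21 ± 0.32), Plbd2 (at least 2.025-fold higher in CDP, below detection in CMP), Slc15a4 (1.44 ± 0.63) and the chloride-proton exchanger Clcn7 (1.79 ± 0.38, adjusted p = 0.0931).

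Of 12 further pump and assembly genes 5 had a positive and 7 a negative difference, with a median of -0.06, and 0 passed. Dmxl2, a subunit of the rabconnectin complex that promotes pump assembly, was at 6.17, 6.38 and 5.85 in CDP and 7.69 and 7.66 in CMP, lower in CDP without overlap (-1.54 ± 0.32, 2.91-fold, adjusted p = 0.0899). Ncoa7, which can bind the pump, was at -1.04 ± 0.40 (adjusted p = 0.281). Rogdi, assigned to the same complex as Dmxl2 and named after its values were seen, went the other way, at 6.64, 7.997 and 7.69 in CDP and 5.36 and 6.64 in CMP, with CDP 1 level with CMP 2 (1.45 ± 0.58, adjusted p = 0.302), as did Tcirg1. Of 19 genes of delivery to lysosomes 15 were positive and 0 passed. Vps11, shared by tethering complexes of endosomes and lysosomes, was at 1.86 ± 0.40 (adjusted p = 0.0952), Ap3d1 at 0.95 ± 0.32 and Vps26a at 1.03 ± 0.36. Of 17 regulators 12 were positive and 0 passed. Mitf, a relative of Tfeb, was at 1.00 ± 0.45 (adjusted p = 0.354), and the nutrient-sensing genes Rragc and Rptor were at 0.63 ± 0.31 and 0.70 ± 0.40.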

How the data were processed

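The deposited table holds log2 expression values per probe set on 5 arrays, which the authors made with GCRMA (per the submitters' processing notes; its version and any genome build are not given in the sources used here). The deposited log2 values were used without further normalization. Groups and replicate numbers came from sample titles. Members, lists, alternatives and the rule for genes described (called genes, the 2 largest differences and the 2 smallest p of a class, and genes whose probe sets disagree in sign, with all other members given briefly) were chosen with earlier results of these data known.

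Probe sets with at least 2 arrays at or above log2 5, which also served as detection level, were tested (16552 of 45037). The 2 groups were compared by the moderated test of limma 3.58.1 under R 4.3.3 (lmFit, then eBayes), with the Benjamini-Hochberg adjustment taken over every tested probe set and a threshold of 0.05. A gene's brightest tested probe set stood for it. Of 20 genes with several, 5 disagreed in sign (Atp6v0b, Atp6v1c1, Gusb, Ids and Tpp1). Where the dimmer group had values below log2 5, folds are lower bounds with these set to 5. The number of arrays limits the precision. The procedure was tested on simulated data with independent noise and no effect shared across an array. That test therefore does not bear on the shared array effects of these data. Alternatives were 2 scalings, 3 filters, 2 variance models, array weights, 2 blocks, 2 choices of probe sets and leaving out each array.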

Additional observations from a re-analysis of the deposited data

How the results depend on the processing

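The 2 variance models leave every difference unchanged, so they could not move a class median. Under the other alternatives the direction held for all 3 class medians, except the hydrolase median, which was -0.175 with arrays centred on their medians. That scaling also gave 0.2822 for membrane proteins, 0.2303 for the proton pump and 1 called probe set of the lysosomal genes, and turned Fuca1 (-0.175), Ids (-0.2614), Hexa (-0.2789), Ppt1 (-0.0143), Atp6v1a (-0.0753), Atp6v1c1 (-0.3438) and Grn 1438629_x_at (-0.27). Relative to the median of all genes, hydrolases ranged from -0.0014 to 0.3187, membrane proteins from 0.443 to 0.7361 and the pump from 0.2942 to 0.5831 over the alternatives. Without a filter on low values 55 probe sets of the whole table were called in place of 287, and 1 of the lysosomal genes. With array weights the membrane median was 0.9059 and Gusb 0.051. Without probe sets marked _x_at or _s_at, 1 lysosomal probe set was called. With all probe sets of a gene averaged 1 gene rose (Grn), the membrane median was 0.8527, and Gusb (0.0177), Ids (-0.0667) and Atp6v1c1 (-0.0166) changed sign. With the 5′ kind of array as a block 1438 probe sets of the whole table were called, with 3 lysosomal genes and 9 lysosomal probe sets higher and 1 gene lower. With the replicate block these were 608, 1 (Psap, 2.04, limma, adjusted p = 0.0405) and 5. CDP 3 is the only array with its number, so that block takes it up. The differences of that fit are therefore those without CDP 3 (hydrolase median 0.1836 in both) and rest on CDP 1, CDP 2, CMP 1 and CMP 2. Deviations of same-numbered arrays from their group means correlated at 0.6062 and 0.5794. With 2 CMP arrays the deviations of one mirror those of the other, so these 2 values are not independent. CDP 1 and CMP 1 are also the arrays low in 5′ signal. Only 2 pairs exist and no label ties the numbers, so outside the replicate block they were not treated as a pairing.

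Leaving out 1 array at a time gave 0 to 44 called probe sets in the whole table, 0 of the lysosomal genes, and medians from 0.6058 to 0.9624 for membrane proteins, 0.1836 (without CDP 3) to 0.466 (without CMP 2) for hydrolases and 0.4021 (without CMP 1) to 0.7643 (without CDP 1) for the pump. The sign changed in these runs for Gusb (-0.9263 to 0.8061), Ids (-0.4264 to 0.7303), Hexa (-0.2015 to 0.4704), Tpp1 (-0.7574 to 0.0504), Scarb2 1454704_at (-0.0068 to 1.1658), Cd68 (-0.4846 to 2.0761), Atp6v0b (-0.1349 to 1.4682), Atp6v1c1 (-0.28 to 0.419), Atp6v1f (-0.7281 to 1.9695), Atp6v1h (-1.3269 to 0.7268) and Grn 1438629_x_at (-0.1057 to 0.3924). Without CMP 1 the number of lysosomal genes with a positive difference was 28. The cause of these changes was not tested. Probe sets below log2 5 give no measure of level, and 5 arrays limit every comparison.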
